A study of Mus musculus with 6 samples.

Results

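RNA for 7 genes was followed across 6 libraries of sorted mouse beta-cells: the hormone genes *Gcg*, *Sst*, *Ppy* and *Pyy*, and *Ttr*, *Etv1* and *Tspan8*, which are used as markers of alpha-cells or of pancreatic polypeptide (PP) cells. These 7 of the 13535 genes in the table were selected on their values in this same comparison, so their differences between the groups are given as a description and without a test. All cells came from wild-type (WT) C57BL/6JRj male mice aged 12 weeks. Islet cells were dispersed, sorted by surface proteins and left to aggregate for 5 days. Pseudo-islets held alpha-, beta- and delta-cells, and pseudo-beta held beta-cells only. The clusters were then taken apart and beta-cells were sorted again, so that each library is labelled as beta-cell RNA and the groups differ in the cells that had surrounded the beta-cells during culture. There were 3 libraries per group, from experiments 35, 36 and 37, each with 1 library of either kind. How many mice went into an experiment, and into which sort gate PP-cells fell, are not given in the sources used here.

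Islets of Langerhans hold several endocrine cell types, each named for the hormone it makes. Alpha-cells make glucagon, which raises blood glucose, delta-cells make somatostatin, which restrains both insulin and glucagon release, and PP-cells make pancreatic polypeptide, a relative of peptide YY and neuropeptide Y. Hormone genes are transcribed at very high levels in their own cell type. In bulk RNA of this kind, fewer cells of a type and less RNA per cell cannot be told apart.

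The label of beta-cells was checked first. All 10 beta-cell markers were present in all libraries, with *Ins2*, an insulin gene, at 5405326 to 5971276 normalized counts, and their summed level was 7220072 to 8337444 in pseudo-islets and 6961554 to 7704913 in pseudo-beta. Normalized counts are estimated read counts that the authors scaled between libraries, and they summed to 17994346 to 19635287 per library, with 40.9% to 45.1% in the 10 most abundant genes. The number of reads is not known. No library stood apart in these sums, but the marker sum is mostly *Ins2* and says little about the other markers. *Mafa*, the marker with the lowest level, was at 1692 and 1572 in pseudo-islets and pseudo-beta of experiment 37. In experiments 35 and 36 it was at 733 and 548 in pseudo-islets and at 639 and 368 in pseudo-beta.

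Compared per kilobase of transcript, which allows genes to be set beside each other, the levels of the 7 genes spanned a wide range. In pseudo-islets the group means were 4804 normalized counts per kilobase for *Ttr*, 4230.5 for *Ppy*, 1470.1 for *Gcg*, 1359.6 for *Pyy*, 253 for *Sst*, 168 for *Tspan8* and 88.6 for *Etv1*. Neighbours among the first 4 of this order overlapped between libraries, while *Pyy*, *Sst*, *Tspan8* and *Etv1* each lay wholly above the next. In pseudo-beta *Ttr* led at 3150.1, followed by *Ppy* at 1733, *Pyy* at 746, *Tspan8* at 144 and *Etv1* at 46.4. *Ttr* and *Ppy* overlapped there, as did *Ppy* and *Pyy*. Both *Gcg*, at 0 to 33.2, and *Sst*, at 0 to 6.57, lay below all the *Etv1* libraries in pseudo-beta and overlapped each other. The positions of *Gcg* and *Sst* were the part of the order that differed between the groups.

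*Gcg* (ENSMUSG00000000394, GRCm38 chromosome 2, 62474530 to 62483650, minus strand) encodes proglucagon, from which alpha-cells cut glucagon. In experiments 35, 36 and 37 its levels were 1763, 941 and 2094 normalized counts for pseudo-islets, against 36.1, 14.1 and 0 for pseudo-beta. The groups did not overlap, and the lowest pseudo-islets library was far above the highest pseudo-beta library. Within experiment 35 pseudo-islets were 48.9-fold higher, and within experiment 36 they were 66.7-fold higher. In experiment 37 *Gcg* is listed at 0 in pseudo-beta, so no fold is given.

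*Sst* (ENSMUSG00000004366, chromosome 16, 23889573 to 23890958, minus strand) encodes somatostatin, the delta-cell hormone. Its level, in the same order of experiments, was 190.2, 146 and 210.2 normalized counts for pseudo-islets against 0, 0 and 4.74 for pseudo-beta. Here too the groups did not overlap, and the only pseudo-beta library above 0 was experiment 37, the one in which *Gcg* is listed at 0. The ratio in that experiment was 44.4. Zeros were not widespread in the table: 25 to 95 genes per library are listed at 0, and among genes with at least 50 normalized counts in the other 5 libraries a 0 appears once in pseudo-beta 35 and once in pseudo-beta 36. Every gene of the table reaches 10 normalized counts in 3 or more libraries, a floor that *Gcg* and *Sst* met through pseudo-islets.

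The sequences just upstream of both genes are shown because *Gcg* and *Sst* have the largest differences of the 7 and separate the groups most widely. They are the 250 bases before the RefSeq transcription start (GRCm38.p6), 5′ to 3′ on the gene's strand, at chr2:62483654-62483903 for *Gcg* and chr16:23890845-23891094 for *Sst*. Capitals mark 2 motifs that were searched on both strands: TATAA, read as TTATA on the other strand, the core of the TATA box, and TGACGTCA, the cAMP response element, which reads the same on both strands.

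Gcg: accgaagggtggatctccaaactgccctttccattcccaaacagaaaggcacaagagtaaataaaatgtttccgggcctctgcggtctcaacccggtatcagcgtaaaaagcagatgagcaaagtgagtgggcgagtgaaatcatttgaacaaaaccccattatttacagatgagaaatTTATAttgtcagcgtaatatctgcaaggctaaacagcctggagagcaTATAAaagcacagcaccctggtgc
Sst: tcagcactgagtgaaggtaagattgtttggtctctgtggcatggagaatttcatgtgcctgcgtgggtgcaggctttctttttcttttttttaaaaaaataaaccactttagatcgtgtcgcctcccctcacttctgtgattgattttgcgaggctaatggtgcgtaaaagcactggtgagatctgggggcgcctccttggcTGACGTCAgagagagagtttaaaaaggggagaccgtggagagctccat

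The *Sst* sequence holds TGACGTCA with its first base at position -48 and has no TATAA match. The annotated span of *Sst* given above begins inside this window. The *Gcg* sequence has TATAA at -24 and its reverse at -71, and no TGACGTCA. Of all 32851 mouse promoter windows of this length, 22.8% hold TATAA on either strand and 1.55% hold TGACGTCA. A match is a string of letters and not evidence of binding.

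**Figure D1:**
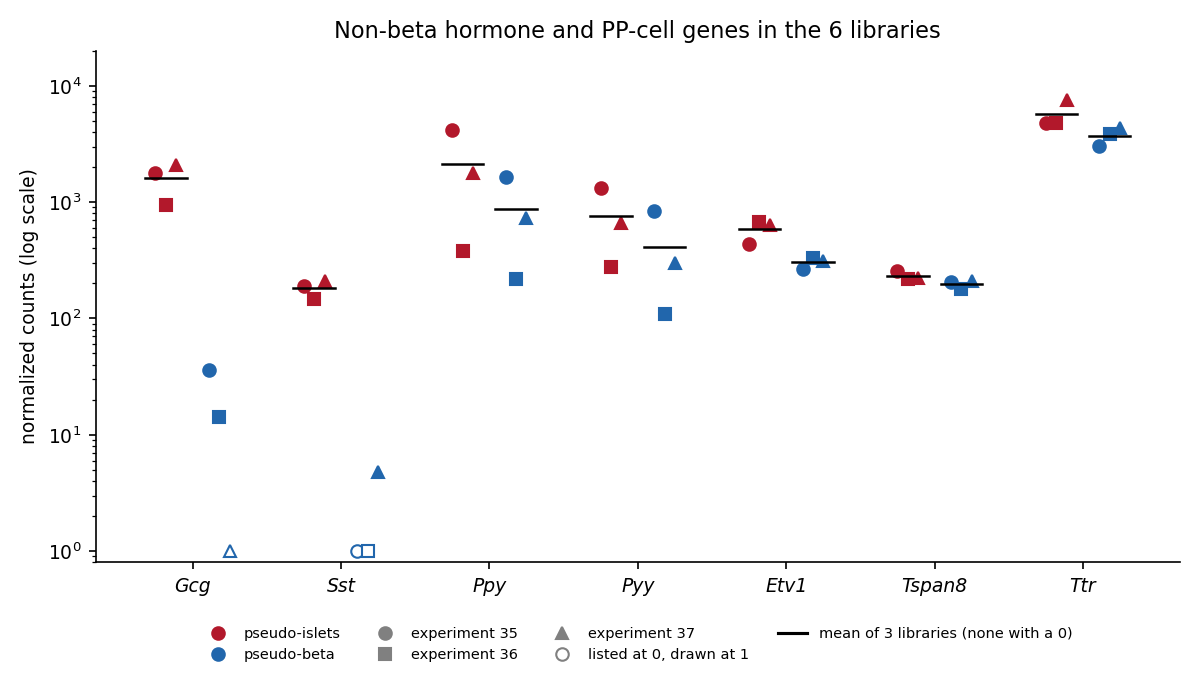
Normalized counts (log10 axis) of the 7 genes in each library, pseudo-islets beside pseudo-beta, with the symbol giving the experiment, open symbols at the bottom for libraries listed at 0, and bars for group means where no library is at 0. *Gcg* and *Sst* separate the groups most widely, and *Ppy* and *Pyy* spread more widely over the experiments than between the groups.

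*Ppy* (ENSMUSG00000017316, chromosome 11, 102099930 to 102101319, minus strand) encodes pancreatic polypeptide, the hormone that defines PP-cells. Its levels were 4172, 383 and 1790.5 normalized counts for pseudo-islets against 1650.1, 219 and 731 for pseudo-beta. Unlike *Gcg* and *Sst*, it was well above 0 in all pseudo-beta libraries, and the groups overlapped: pseudo-beta 35 was higher than pseudo-islets 36. Experiment 35 was the highest and experiment 36 the lowest in both groups, with a highest-to-lowest ratio of 10.9 in pseudo-islets and 7.54 in pseudo-beta. Within each experiment pseudo-islets were higher, by 2.53-, 1.75- and 2.45-fold. The group means were 2115 ± 1915 and 867 ± 725 (SD, n = 3). On the log2(value + 1) scale the fold change was 1.15 with a standard error of 0.83.

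*Pyy* (ENSMUSG00000017311, chromosome 11, 102106676 to 102107832, minus strand) encodes peptide YY, a hormone of gut endocrine cells that is also made in islets. Its levels were 1328, 275 and 661 normalized counts for pseudo-islets against 832, 109 and 301 for pseudo-beta. The order of the experiments was the one seen for *Ppy* in both groups, with highest-to-lowest ratios of 4.83 and 7.61, and the groups again overlapped. Within experiments 35, 36 and 37 pseudo-islets were 1.6-, 2.51- and 2.19-fold higher. The log2 fold change was 1.04 with a standard error of 0.69.

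Leaving out a library moved both log2 fold changes. For *Ppy* the value fell to 0.37 without pseudo-islets 35 or without pseudo-beta 36, and it was 1.83 without pseudo-beta 35 and 2.09 without pseudo-islets 36. For *Pyy* the corresponding values were 0.50, 0.31, 1.77 and 1.63. When each experiment was compared with itself (the replicate block), the standard error was 0.13 for *Ppy* and 0.17 for *Pyy*, with the fold changes the same.

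*Ppy* and *Pyy* lie next to each other on the minus strand, with 5356 bases between them, and their proximal sequences are shown because the pair moved together. They are at chr11:102101320-102101569 for *Ppy* and chr11:102107833-102108082 for the outer of the RefSeq starts of *Pyy*, from the same source and with the same marking.

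Ppy: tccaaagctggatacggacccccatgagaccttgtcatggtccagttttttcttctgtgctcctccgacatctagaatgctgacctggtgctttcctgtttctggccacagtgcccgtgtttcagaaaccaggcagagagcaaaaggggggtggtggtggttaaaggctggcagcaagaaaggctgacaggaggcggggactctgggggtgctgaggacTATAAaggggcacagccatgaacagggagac
Pyy: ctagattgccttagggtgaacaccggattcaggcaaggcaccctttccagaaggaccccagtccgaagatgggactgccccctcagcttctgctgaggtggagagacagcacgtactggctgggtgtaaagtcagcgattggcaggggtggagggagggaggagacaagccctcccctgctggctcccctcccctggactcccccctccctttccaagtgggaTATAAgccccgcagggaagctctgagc

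Each holds TATAA a short way before the start, with its first base at -31 in *Ppy* and at -27 in *Pyy*, and neither holds TGACGTCA. Reads can be told apart between the genes: their transcripts share no run of 31 bases, and the longest run they share is 10 bases. The other 6 genes within 100 kb that have values did not vary as *Ppy* and *Pyy* did. Their highest-to-lowest ratios within a group were 1.11 to 3.00, and their log2 fold changes ran from -0.79 (standard error 0.37) for *Hdac5*, a histone deacetylase, to 0.31 (standard error 0.39) for *Mpp2*, a scaffold protein. The lowest adjusted p among them was 0.928 (limma, Benjamini-Hochberg adjustment across the whole table).

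The spread of *Ppy* between experiments was among the widest in the data. Taking for each gene the smaller of its highest-to-lowest ratios in the 2 groups, *Ppy* at 7.54 ranked 6 and *Pyy* at 4.83 ranked 15 of 10570 genes that averaged 50 or more normalized counts with no library at 0, against a median of 1.28. The genes above *Ppy* were *Nr4a1* at 50.9, *Fos* at 23.7 and *Egr1* at 13.0, which are immediate early genes, *Ifit3*, an interferon-induced gene, at 8.02, and *Tcf24* at 7.88. *Ttr* ranked 3352 at 1.41, *Etv1* ranked 5841 at 1.25 and *Tspan8* ranked 7435 at 1.17. The wide spread was therefore seen for the hormone genes *Ppy* and *Pyy* and not for the other genes used as PP-cell markers here.

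*Etv1* (ENSMUSG00000004151, chromosome 12, 38779380 to 38870484, plus strand) encodes an ETS-family transcription factor. Its levels were 434, 673 and 640.0 normalized counts for pseudo-islets against 268, 334 and 314 for pseudo-beta. The groups did not overlap, with means of 583 ± 129 and 305 ± 33.9 (SD, n = 3), and pseudo-islets were 1.62-, 2.02- and 2.04-fold higher within the experiments. Experiment 35, the highest for *Ppy* and *Pyy*, was the lowest for *Etv1* in both groups, and experiment 36 was the highest. The log2 fold change was 0.91 with a standard error of 0.22. Of the 31-base runs in its transcripts 10.0% also occur in transcripts of other genes, so part of its count could depend on how shared reads were assigned.

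*Tspan8* (ENSMUSG00000034127, chromosome 10, 115816832 to 115849893, plus strand) encodes a tetraspanin of the cell surface. Its levels were 256, 218 and 221 normalized counts for pseudo-islets against 206, 179.6 and 211 for pseudo-beta. The groups lay close together without overlapping, and the ratios of 1.25, 1.22 and 1.05 were the smallest of the 7 genes. The log2 fold change of 0.22 was about as large as its standard error of 0.21. An antisense gene, *4930422I22Rik*, overlaps *Tspan8*, and whether the counting used strand is not given in the sources used here.

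*Ttr* (ENSMUSG00000061808, chromosome 18, 20665280 to 20674321, plus strand) encodes transthyretin, a carrier of thyroid hormone and retinol-binding protein that is abundant in alpha-cells and is also made by beta-cells. Its levels were 4772, 4757 and 7565 normalized counts for pseudo-islets against 3063, 3838 and 4307 for pseudo-beta. The groups did not overlap, the means were 5698 ± 1617 and 3736 ± 628 (SD, n = 3), and pseudo-islets were 1.56-, 1.24- and 1.76-fold higher within the experiments. The log2 fold change was 0.59 with a standard error of 0.20. It was 0.36 without pseudo-islets 37, the library with the highest level.

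**Figure D2:**
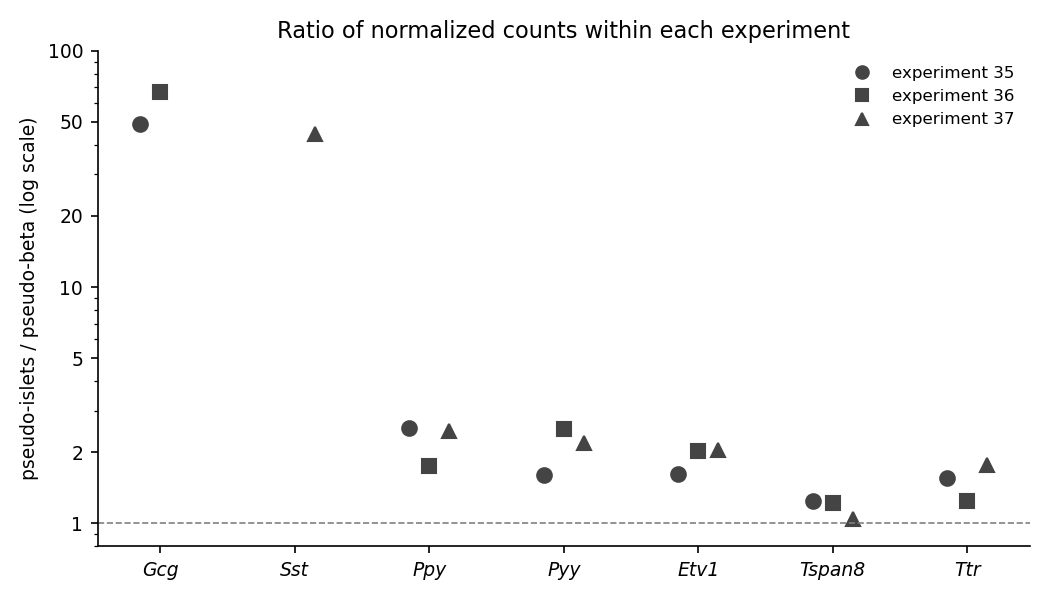
Ratio of normalized counts, pseudo-islets over pseudo-beta (log10 axis), for each gene in experiments 35, 36 and 37; a ratio against a library at 0 is not drawn. *Gcg* and *Sst* lie between 44.4 and 66.7, and the ratios of the other 5 genes between 1.05 and 2.53.

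All 7 genes were higher in pseudo-islets in 3 of 3 experiments, which 18.0% of all genes were, and in 5 of 7 the groups did not overlap, against 5.63% of all genes in that direction. Nothing is read from these counts, since the genes were chosen on this contrast. The sizes differed widely within the list: both *Gcg* and *Sst* were over 40-fold higher wherever a ratio could be formed, *Ppy*, *Pyy* and *Etv1* were 1.6- to 2.53-fold higher, and *Ttr* and *Tspan8* were 1.05- to 1.76-fold higher.

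Ratios of counts between genes within a library do not depend on how libraries were scaled, and they are compared here across libraries only. *Sst* per *Gcg* was 0.108, 0.156 and 0.10 in pseudo-islets of experiments 35, 36 and 37. Its highest-to-lowest ratio of 1.55 lay between that of *Sst* itself, 1.44, and that of *Gcg*, 2.22. *Pyy* per *Ppy* was 0.318, 0.717 and 0.369 for pseudo-islets against 0.504, 0.50 and 0.412 for pseudo-beta, with highest-to-lowest ratios of 2.25 and 1.22 beside 4.83 to 10.9 for the genes themselves. *Ppy* per *Gcg* was less steady, at 2.37, 0.407 and 0.855 in pseudo-islets. Per kilobase, *Ppy* at 8344, 766 and 3581 lay above *Gcg* at 1620.3, 865 and 1924.9 in pseudo-islets 35 and 37 and below it in pseudo-islets 36.

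In pseudo-beta, *Ppy* per *Gcg* was 45.7 in experiment 35 and 15.5 in experiment 36. *Ttr* per *Gcg* was 2.71, 5.05 and 3.61 for pseudo-islets against 84.9 and 272 for pseudo-beta 35 and 36, so that the *Ttr* level of pseudo-beta was accompanied by very little *Gcg*. *Etv1* per *Ppy* was 0.104, 1.76 and 0.357 for pseudo-islets against 0.162, 1.53 and 0.429 for pseudo-beta. *Tspan8* per *Ppy* was 0.0614, 0.570 and 0.123 for pseudo-islets against 0.125, 0.821 and 0.289 for pseudo-beta. Both of these ratios varied widely between experiments in the same order in the 2 groups, the inverse of the order of *Ppy*.

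**Figure D3:**
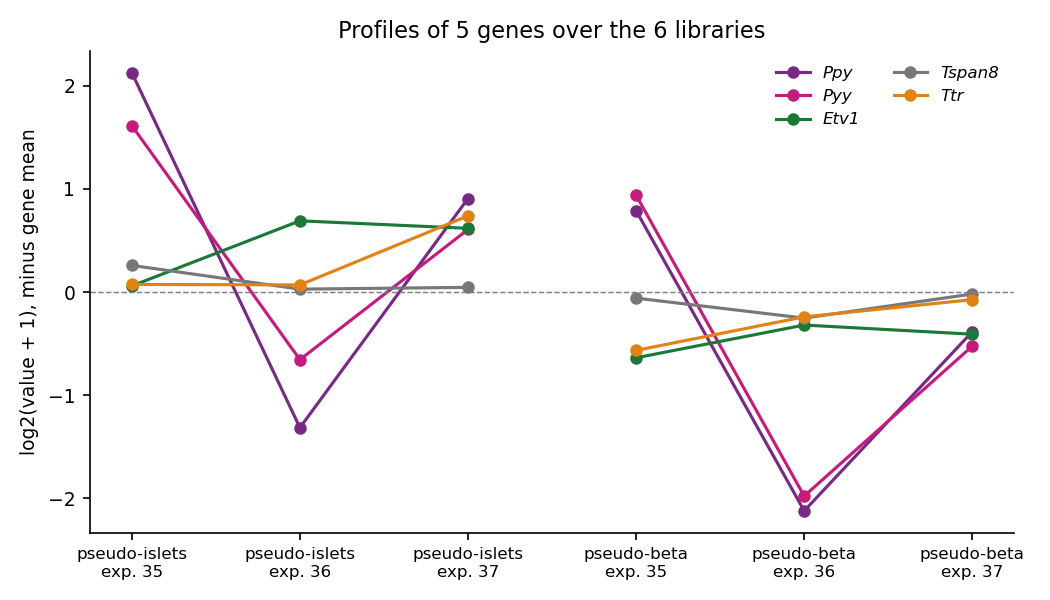
Level in the 6 libraries of *Ppy*, *Pyy*, *Etv1*, *Tspan8* and *Ttr*, as log2(value + 1) minus the gene's own mean over the libraries; lines only join the points of 1 gene. *Ppy* and *Pyy* run together with a peak in experiment 35 and a low in experiment 36, while *Etv1*, *Ttr* and *Tspan8* stay within 1 log2 unit of their means.

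Likeness of 2 genes was measured as the root mean square difference between such centred profiles over the 6 libraries, among 10576 genes that averaged 50 or more normalized counts. *Pyy* was the nearest of all genes to *Ppy*, at 0.376 on the log2 scale. The next were *Trpm2*, a cation channel, at 0.794, *Mtus2* at 0.817, *Fat1*, an atypical cadherin, at 0.825 and *Rrm2*, a subunit of ribonucleotide reductase, at 0.869, against a median of 1.45 over all genes. *Tspan8* ranked 1045 at 1.32, *Ttr* ranked 3001 at 1.39 and *Etv1* ranked 7314 at 1.51. *Sst* ranked 10574 at 3.11 and *Gcg* ranked 10576, the last, at 3.68. *Ppy*, *Pyy*, *Tspan8*, *Ttr*, *Etv1*, *Sst* and *Gcg* were all selected on their difference between the groups, which enters the distance. The nearness of *Pyy* to *Ppy* and the ranks of *Tspan8*, *Ttr* and *Etv1* are therefore given as a description only. Nothing is read from the ranks of *Sst* and *Gcg*. The points are 6 libraries of the same 3 experiments, and with Pearson's r in place of the distance *Pyy* was the fifth gene at 0.976 and *Tspan8* ranked 236 at 0.807, while *Ttr* was at 0.24 and *Etv1* at 0.026. The order by r ignores the size of a change, and *Tspan8* varied far less than *Ppy*.

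For *Gcg* the nearest gene was *Sst*, at 2.44, followed by *Ugt1a9*, a glucuronosyltransferase, at 2.55, *Gm14685* at 2.80, *Gm15681* at 3.03 and *Gm45140* at 3.15 (median of all genes 4.09). For *Sst* the nearest were *Hcar2*, a receptor for hydroxybutyrate, at 2.07, *Ugt1a9* at 2.08, *Pdyn*, which encodes prodynorphin, at 2.20, *Gm27168* at 2.24 and *Gcg* at 2.44 (median 3.45). Libraries listed at 0, which lie far from the others on a log scale, enter these distances. The difference between the groups enters them too, and *Gcg* and *Sst* were both selected on that difference. Their nearness to each other is therefore given as a description only. With a pseudocount of 10 in place of 1, a choice made after seeing the data, all 5 nearest genes of *Ppy* were the same, as were 3 of 5 for both *Gcg* and *Sst*, *Sst* was still the nearest to *Gcg*, and *Gcg* ranked 7 for *Sst*. The nearest genes depended on the measure: by Pearson's r over the 6 libraries 1 of the 5 was shared for *Ppy* and 0 of 5 for *Gcg* and for *Sst*. By r, at 0.804, *Sst* ranked 418 for *Gcg* and *Gcg* ranked 354 for *Sst*.

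**Figure D4:**
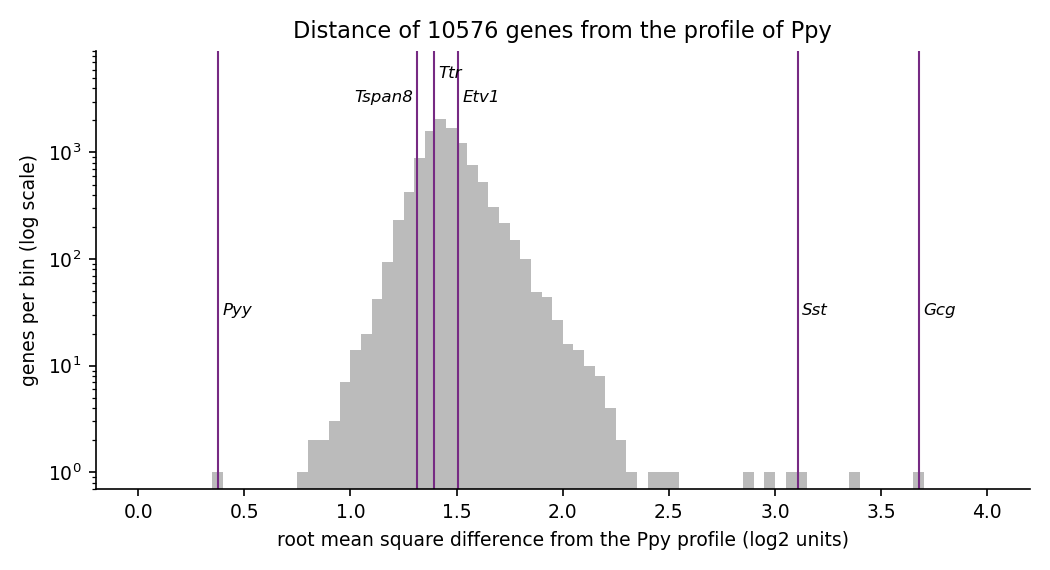
Distribution over genes of the root mean square difference from the *Ppy* profile (log2 units, 6 libraries), with the other 6 genes marked. *Ppy* and the marked genes were selected on their difference between the groups, which enters this measure. *Pyy* is the nearest at 0.376, *Tspan8* at 1.32 and *Ttr* at 1.39 lie below the median of 1.45 and *Etv1* at 1.51 above it, and *Sst* and *Gcg* lie at the far end.

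Other genes known for the same cell types, and for hormone processing and reception, were tested with limma on log2(value + 1) with Benjamini-Hochberg adjustment over all 13535 genes, in which 0.0591% of genes passed an adjusted p under 0.05. No gene of the lists below passed, and neither did any beta-cell marker (1 of 10 with an unadjusted p under 0.05). Of the 10 markers 2 were higher in pseudo-islets without overlap of the groups and 0 lower, against 5.63% and 5.13% of all genes. The log2 fold changes of these 2 were 0.16 (standard error 0.11) for *Ucn3* and 0.23 (0.10) for *G6pc2*. With the replicate block 0.436% of all genes passed as higher and 0.103% as lower, and the 3 list genes that passed then are given with their lists. The median log2 fold change of all genes was 0.01.

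Of 11 further alpha-cell genes 6 were measured, and 0 passed the test in either direction or had an unadjusted p under 0.05. Their median log2 fold change was 0.26, with 4 above 0 and 2 below, and their summed level was 4351 to 5806 normalized counts in pseudo-islets and 3575 to 5376 in pseudo-beta. *Dpp4*, a peptidase that trims GLP-1, had the highest level of the list in the means of both groups, and its log2 fold change was 0.45 (standard error 0.26 without the replicate block). Its standard error was 0.092 with the block, and its adjusted p by limma was 0.065 with it and 0.969 without it. The alpha-cell factors *Irx1*, *Irx2* and *Pou3f4* were among those not analysed here. What part alpha-cell RNA has in the *Gcg* and *Ttr* values was not tested.

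Of 7 further delta-cell genes only *Rbp4*, which encodes retinol-binding protein, was measured, at 198 to 341 normalized counts in pseudo-islets and 245 to 273 in pseudo-beta. The log2 fold change of *Rbp4* was -0.05 (standard error 0.25), beside the separation seen for *Sst*. The delta-cell factor *Hhex* and the ghrelin receptor gene *Ghsr* were among the 6 not analysed here, and the part of delta-cell RNA was not tested. Of 9 further PP-cell genes, known mainly from human islets, 3 were measured and 0 passed or had an unadjusted p under 0.05. *Meis2* was at -0.22 (standard error 0.17), *Id4* at -0.21 (0.52) and *Entpd2* at 0.75 (0.54), with a median of -0.21 where *Ppy* and *Pyy* were at 1.15 and 1.04.

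Genes of the sort itself were set beside these values. *Cd81*, which encodes the surface protein used to sort alpha-cells away, was at 233, 174 and 112 normalized counts for pseudo-islets against at 386, 168 and 183 for pseudo-beta, and it was higher in pseudo-beta in experiments 35 and 37. *Cd24a*, for the protein used to sort delta-cells, was at 2.32 to 19.6 and at 0 to 14.3. Of 4 measured gate genes 0 passed. Of 14 acinar and duct markers 3 were measured, with sums of 5445 to 6129 in pseudo-islets and 4391 to 6891 in pseudo-beta, most of it *Krt7*. Of 16 endothelial, immune and stromal markers 3 were measured, with sums of 109 to 133 and 91.8 to 148, and 0 of either list passed or had an unadjusted p under 0.05.

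Among 20 other peptide hormone genes 4 were measured and 0 passed or had an unadjusted p under 0.05. *Npy*, the neuropeptide Y gene and a relative of *Ppy* and *Pyy*, was at 154, 111 and 43.9 normalized counts for pseudo-islets against 212, 58.5 and 82.8 for pseudo-beta. It was highest in experiment 35 in both groups, as *Ppy* was, but its log2 fold change was -0.15 (standard error 0.55). *Cartpt*, a neuropeptide gene, was at 18.0, 20.4 and 34.4 for pseudo-islets against 14.5, 0 and 10.5 for pseudo-beta, and *Pthlh*, for a parathyroid hormone relative, at 0, 12.7 and 14.6 and at 35.8, 26.8 and 19.3. Neither pair of groups overlapped, *Cartpt* higher and *Pthlh* lower in pseudo-islets, where 5.63% and 5.13% of all genes show the same.

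The receptors through which these hormones act were measured for 3 of 12 genes, with all log2 fold changes below 0 (median -0.16), and 1 had an unadjusted p under 0.05. *Gcgr*, the glucagon receptor gene, was at 874, 889 and 648 normalized counts for pseudo-islets against 1267, 1318 and 1099.8 for pseudo-beta. The groups did not overlap, and the level was lower in pseudo-islets in 3 of 3 experiments, the reverse of *Gcg*. The log2 fold change was -0.62 with a standard error of 0.17, and the adjusted p by limma was 0.649 without the block and 0.043 with it. With the block, and without experiment 35, 36 or 37, the adjusted p was 0.147, 0.0639 or 0.225. The authors had already picked *Gcgr* as changed from these same libraries, so these p-values are not independent of that choice. *Glp1r*, the GLP-1 receptor gene, was at -0.16 (standard error 0.12) and *Sstr3*, a somatostatin receptor gene, at -0.16 (0.25).

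All 7 genes of prohormone processing were measured. The median of their log2 fold changes was 0.29, and 2 had an unadjusted p under 0.05. *Pcsk1*, the convertase that cuts GLP-1 from proglucagon and also cuts proinsulin, was at 15813, 13399.8 and 12644 normalized counts for pseudo-islets against 11265, 10927 and 8881 for pseudo-beta. It was higher in 3 of 3 experiments without overlap of the groups, at 0.43 (standard error 0.14), with an adjusted p by limma of 0.781 without the block and 0.028 with it. Like *Gcgr*, *Pcsk1* had been picked by the authors from these same libraries, so its p-values are not independent of that choice. *Cpe*, the carboxypeptidase that trims cut prohormones, was at 0.35 (standard error 0.32), with adjusted p-values by limma of 0.998 and 0.043. With the block, and leaving out experiment 35, 36 or 37, the adjusted p was 0.147, 0.0122 or 0.124 for *Pcsk1* and 0.0478, 0.126 or 0.184 for *Cpe*. *Pcsk2*, the convertase that releases glucagon, was at 0.20 (standard error 0.11) without overlap, and *Pcsk1n*, an inhibitor of *Pcsk1*, at -0.41 (0.14), also without overlap and lower in pseudo-islets. Neither passed with or without the block.

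**Figure D5:**
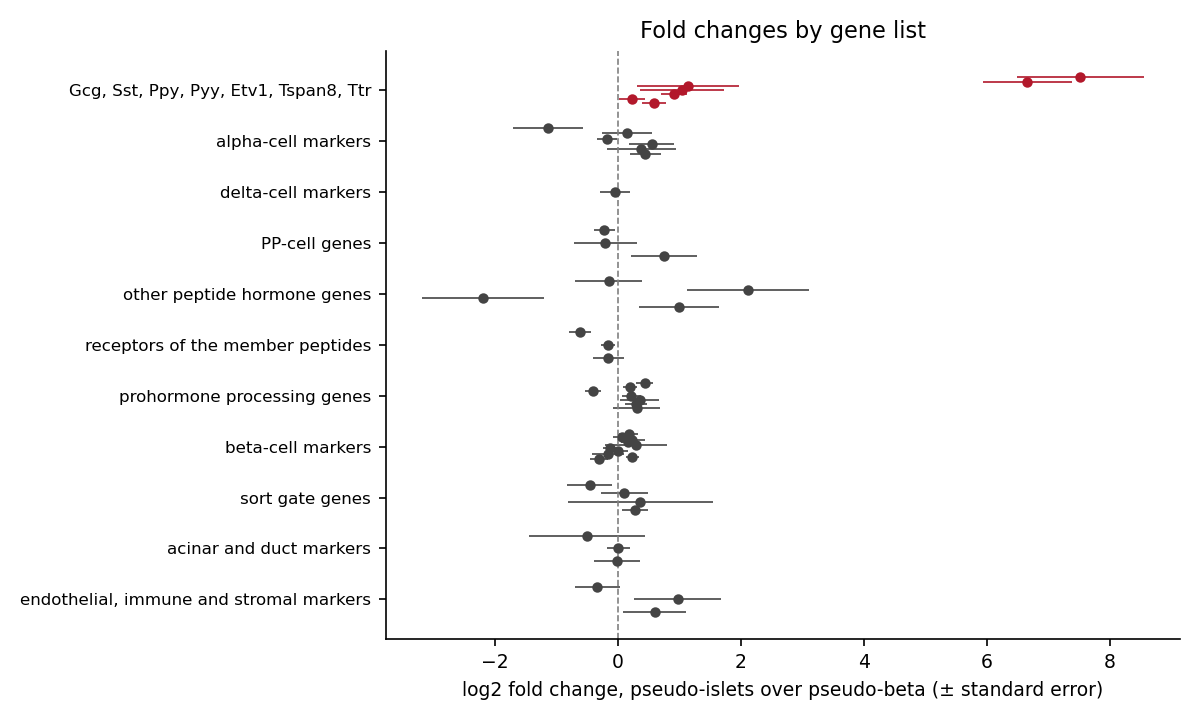
Log2 fold change, pseudo-islets over pseudo-beta on the log2(value + 1) scale, of the 7 genes and of the measured genes of each list, each point a gene with its standard error (points are offset vertically for legibility). The 7 genes, which were chosen on this contrast, are all above 0, and the medians of the other lists, not drawn, lie between -0.21 and 0.60.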

How the data were processed

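The authors made each library from 5 ng of RNA, removed ribosomal sequences and sequenced pairs of 75 bases. Per the labels and methods, reads were aligned to GRCm38 with STAR 2.7.6a, quantified with RSEM 1.3.1 and normalized with DESeq2 1.26.0. The deposited table gives this signal as normalized counts. With the best step found per library, 25.2% to 42.9% of low values came out whole (tolerance 0.02), so reads could not be recovered. Deposited columns with the authors' own means, log2 fold changes, score and p-value results were not used.

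All 13535 genes were fitted with limma 3.58.1 (R 4.3.3) on log2(value + 1) with a prior variance following expression, in 3 against 3 libraries without a block, and genes were called at a Benjamini-Hochberg adjusted p under 0.05. The scripts were tested on simulated data. Deviations from the group means correlated at 0.119, 0.121 and 0.325 between libraries of one experiment and at -0.203 to 0.0922 otherwise. Same-numbered libraries were therefore taken as pairs in a second fit, with experiment as a replicate block. The block fit is given where it changes a call, and for *Ppy*, *Pyy* and *Dpp4*. Other standard errors and unadjusted p-values are from the fit without the block. With the block the standard error was 0.79 for *Gcg*, 0.64 for *Sst*, 0.16 for *Etv1*, 0.20 for *Tspan8* and 0.099 for *Ttr*. The members and gene lists were chosen with earlier results of these data known. Named are the 7 members, list genes that passed or did not overlap between groups, list genes that show a list's range, and the 5 genes nearest to *Ppy*, *Gcg* and *Sst*. *Dpp4*, *Npy*, *Cd81*, *Cd24a*, the neighbours of *Ppy* and the genes of widest spread were added after their values were seen. Some list genes are counted but not reported singly here. Promoter windows were from RefSeq, with entries used for 6 of 7 members and *Ttr* left out. Gene positions and transcripts were from the GRCm38 annotation.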

Additional observations from a re-analysis of the deposited data

How the results depend on the processing

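The number of genes called by limma was 8. It was 73 with the replicate block, 9 with a pseudocount of 10, 6 when each library had to reach 10 normalized counts, 1 with a pseudocount of 0.1, and 2 either when libraries were rescaled without the 10 most abundant genes or without the trend of the prior variance. Leaving out 1 library gave 0 to 13 calls: 0 without any pseudo-islets library or pseudo-beta 35, 1 without pseudo-beta 36 and 13 without pseudo-beta 37. With the block and without experiment 35, 36 or 37, a choice made after seeing the data, the count was 28, 73 or 45. With the block 1 receptor gene (*Gcgr*) and 2 processing genes (*Pcsk1* and *Cpe*) passed, and the block changed no other list count. Of 82 alternatives for the fold changes of the 7 genes 0 changed direction, and 80 moved by less than the spread between replicates. The exceptions were *Sst* at 8.95 with a pseudocount of 0.1 and at 4.06 with a pseudocount of 10, since 2 of its libraries are at 0 and a fitted value then depends on the pseudocount. The alternatives include the replicate block and the fit without the trend, which leave a fold change unchanged by design. The spread was the SD within groups, which was wide for *Ppy* and *Pyy*, so their moves below counted as less than it. Leaving out 1 library gave 6.0 to 8.61 for *Gcg*, 6.24 to 7.50 for *Sst*, 0.37 to 2.09 for *Ppy*, 0.31 to 1.77 for *Pyy*, 0.79 to 1.11 for *Etv1*, 0.15 to 0.27 for *Tspan8* and 0.36 to 0.70 for *Ttr*. The read depth behind a normalized count is unknown, so no counting interval is given for the low levels of *Gcg* and *Sst* in pseudo-beta.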
